A study of Homo sapiens with 4 samples.

Results

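The 10 genes described here encode enzymes of glycosphingolipid synthesis, 9 of the ganglioside route and A4GALT of the globo branch, and were followed in HuH7 human hepatocellular carcinoma cells after knockdown of MKL1 and MKL2. The 10 genes were chosen by name around B4GALNT1, which was itself selected on its lower values in the knockdown arrays of this comparison. All 10 had a probe of their own among the 18417 genes measured. For a gene with several probes, the brightest on average was taken. The comparison covered 2 arrays from cells stably expressing shRNA against MKL1 and MKL2 and 2 arrays from cells stably expressing a control shRNA. Both groups carried their hairpin in a lentiviral pLKO.1 vector, went through 7 days of puromycin selection, were grown in 10% fetal bovine serum and were used at under 10 passages. Both factors were targeted in the same cells, so a change cannot be assigned to either factor. The titles call the 2 samples of a group biological replicates, without saying whether they came from separate infections. The spread between these samples may thus be technical. The p-values rest on that spread, for each gene moderated by the spread over all genes. The number of arrays limits the precision of each value.

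Gangliosides are glycolipids that carry sialic acid on a ceramide anchor and sit in the outer leaf of the plasma membrane. They are built by adding one sugar at a time in the Golgi. UGCG puts glucose on ceramide, B4GALT5 and B4GALT6 add galactose to give lactosylceramide, and ST3GAL5 adds the first sialic acid to give GM3. ST8SIA1 adds a further sialic acid and opens the series of GD3, whereas B4GALNT1 adds N-acetylgalactosamine to GM3 or GD3 and so gives GM2 or GD2. B3GALT4, ST3GAL2 and ST8SIA5 extend the chain to the complex gangliosides, and A4GALT diverts lactosylceramide to the globo-series lipid Gb3. MKL1 and MKL2, now named MRTFA and MRTFB, are actin-regulated coactivators of serum response factor (SRF).

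All values are deposited log2 expression values of single probes, so differences are taken between arrays for the same gene. Where a gene's level is set against the medians or quartiles of all probes, that is a rough guide, since probes can differ in brightness. The array medians lay between 5.68 and 5.73 over 33297 probes, and the lower quartiles between 3.99 and 4.02. The probe that lists MRTFA read 6.81 and 6.91 in the MKL1/2 shRNA arrays and 7.77 and 7.80 in the control shRNA arrays. That probe also lists RBM15. MRTFB read 6.84 and 7.11 in the MKL1/2 shRNA arrays and 7.20 and 7.22 in the control shRNA arrays, and SRF read 9.37 and 9.52 against 9.80 and 9.97 in the same order. All 3 were lower in both knockdown arrays than in both control arrays, as were 23.0% of all genes. MRTFB differed from the control mean by -0.36 in knockdown replicate 1 and by -0.095 in replicate 2. Neither MRTFB nor SRF passed the test over all genes (limma adjusted p = 0.448 and 0.189). Of the 8 hepatocyte markers, all genes of secreted plasma proteins, 0 passed the test in limma. AFP was the 1 with an unadjusted p under 0.05, at 11.96 and 11.86 in the MKL1/2 shRNA arrays and 12.26 and 12.19 in the control shRNA arrays. Over all genes 0.174% passed in either direction in limma, and 8.04% were lower and 6.25% higher at an unadjusted p under 0.05. ALB read 12.32 and 12.43 in the MKL1/2 shRNA arrays and 12.25 and 12.18 in the control shRNA arrays, against upper quartiles of all probes between 7.44 and 7.48. The leukocyte marker PTPRC read 3.22 and 2.96 in the MKL1/2 shRNA arrays and 2.78 and 2.80 in the control shRNA arrays, all below the lower quartiles. The 5 other markers of non-hepatocyte cells lay higher, with KRT5 and COL3A1 below the array medians and the fibroblast gene COL1A1, the endothelial gene PECAM1 and the basal epithelial gene KRT14 above them, at values from 6.24 to 7.00. Of these 6 markers 0 passed the test in limma, and PTPRC was the 1 with an unadjusted p under 0.05, against the same shares of all genes. The part of these markers in the results was not tested.

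The reference table of promoters, from RefSeq with build GRCh38.p14, held 5 of the 10 genes (UGCG, B4GALT5, ST3GAL5, ST8SIA1 and A4GALT) with 10 windows in all. The other members, B4GALNT1, B4GALT6, B3GALT4, ST3GAL2 and ST8SIA5, are named only. Windows of 250 bases before the start are shown for UGCG, the entry enzyme, and for ST3GAL5 and ST8SIA1, which had the largest positive differences among the members. ST3GAL5 has start sites up to 34.9 kb apart, which fall into an upstream and a downstream group, and 1 window of each group is shown. Sequences run 5′ to 3′ along the gene's strand, and capitals mark GGGCGG on either strand, the letters of the GC box.
UGCG, chr9:111896564-111896813, plus strand: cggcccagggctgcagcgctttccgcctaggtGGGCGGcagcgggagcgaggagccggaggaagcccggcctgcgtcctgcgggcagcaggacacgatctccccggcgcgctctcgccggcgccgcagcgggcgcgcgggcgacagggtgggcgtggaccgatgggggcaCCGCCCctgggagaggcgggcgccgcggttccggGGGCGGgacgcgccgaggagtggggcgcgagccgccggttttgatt
ST3GAL5, a start of the upstream group, chr2:85888991-85889240, minus strand: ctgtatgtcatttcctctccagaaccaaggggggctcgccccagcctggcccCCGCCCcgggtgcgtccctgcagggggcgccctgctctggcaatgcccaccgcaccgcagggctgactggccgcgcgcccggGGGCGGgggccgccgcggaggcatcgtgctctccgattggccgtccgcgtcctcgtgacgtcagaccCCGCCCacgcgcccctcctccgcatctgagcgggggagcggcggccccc
ST3GAL5, a start of the downstream group, chr2:85854176-85854425, minus strand: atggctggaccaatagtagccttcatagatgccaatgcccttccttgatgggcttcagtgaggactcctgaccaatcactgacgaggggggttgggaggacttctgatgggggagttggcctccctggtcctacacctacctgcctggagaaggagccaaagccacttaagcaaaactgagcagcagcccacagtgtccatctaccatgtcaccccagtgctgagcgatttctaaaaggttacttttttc
ST8SIA1, chr12:22334708-22334957, minus strand: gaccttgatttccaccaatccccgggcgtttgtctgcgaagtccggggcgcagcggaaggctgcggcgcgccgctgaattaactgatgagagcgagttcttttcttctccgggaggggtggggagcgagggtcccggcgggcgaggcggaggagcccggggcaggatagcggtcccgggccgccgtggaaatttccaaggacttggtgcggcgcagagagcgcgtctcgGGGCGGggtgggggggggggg
GGGCGG stood 3 times in the UGCG window, 3 times in the upstream ST3GAL5 window shown and once in the ST8SIA1 window. The downstream ST3GAL5 window shown held none and had a GC content of 52.8%, against 76.0% in the upstream one shown, and the 3 upstream windows held 1 to 3 at 66.0% to 80.0%. Over all 35116 windows of this length in the table, 42.6% held GGGCGG on either strand, and the median GC content was 58.0%. The CArG box, the binding motif of SRF, was found in 0 of the 10 member windows and in 1.16% of all windows. GGAATG, the core letters bound by TEAD factors, stood in 1 window each of B4GALT5 and A4GALT and in 11.9% of all windows. TGANTCA, the AP-1 letters, stood in 0 of the 10 and in 6.57% of all windows. Both strands were searched, and 2 pairs of overlapping GGGCGG matches, both in 1 A4GALT window, were the overlaps in the member windows. A match is a description of letters and not of binding.

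B4GALNT1, the GM2/GD2 synthase, was the member that differed most, and it was lower in both knockdown arrays. It read 6.45 and 6.27 in the MKL1/2 shRNA arrays and 7.51 and 7.70 in the control shRNA arrays. The nearest arrays of the 2 groups lay 1.06 apart, whereas arrays of one group lay 0.18 apart for MKL1/2 shRNA and 0.19 apart for control shRNA. The means were 6.36 ± 0.127 in MKL1/2 shRNA cells and 7.60 ± 0.135 in control shRNA cells (SD, n = 2 each), a log2 difference of -1.24 (SE 0.119) or 0.423 of the control level. In RNA pooled from a whole culture, fewer cells that express a gene and less transcript per cell cannot be told apart. The fit across all genes gave B4GALNT1 an adjusted p of 0.0329 (limma, two-sided, Benjamini-Hochberg). That p is given as a description, because the fall in this same contrast is what brought the gene onto the list. Among all genes, 14 had a larger negative difference and 20 had a smaller p.

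Of the 10 members, B4GALNT1 was thus the 1 past an adjusted p of 0.05, and it was lower. Over all genes 0.0923% were called lower and 0.0814% higher in limma. At an unadjusted p under 0.05 ST8SIA1 was counted as well, as higher, where 8.04% of all genes were lower and 6.25% higher. The 9 other members had log2 differences from -0.16 for B4GALT6 to 0.89 for ST3GAL5, with limma adjusted p-values from 0.229 to 0.911. Their standard errors ran from 0.0929 to 0.453. The groups did not overlap for 3 members that were lower and 5 that were higher, against 23.0% and 22.5% of all genes, or 8 of 10 against 45.5% in either direction. Since the list was drawn up around B4GALNT1 with this contrast known, nothing is read from these shares. The median log2 difference was 0.09 over the 10 members, 0.14 over the 9 without B4GALNT1, and 0.0082 over all genes. Set among all genes by size of difference, 7 members lay within 0.18 of zero, and ST8SIA1, ST3GAL5 and B4GALNT1 lay further out.

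**Figure D1:**
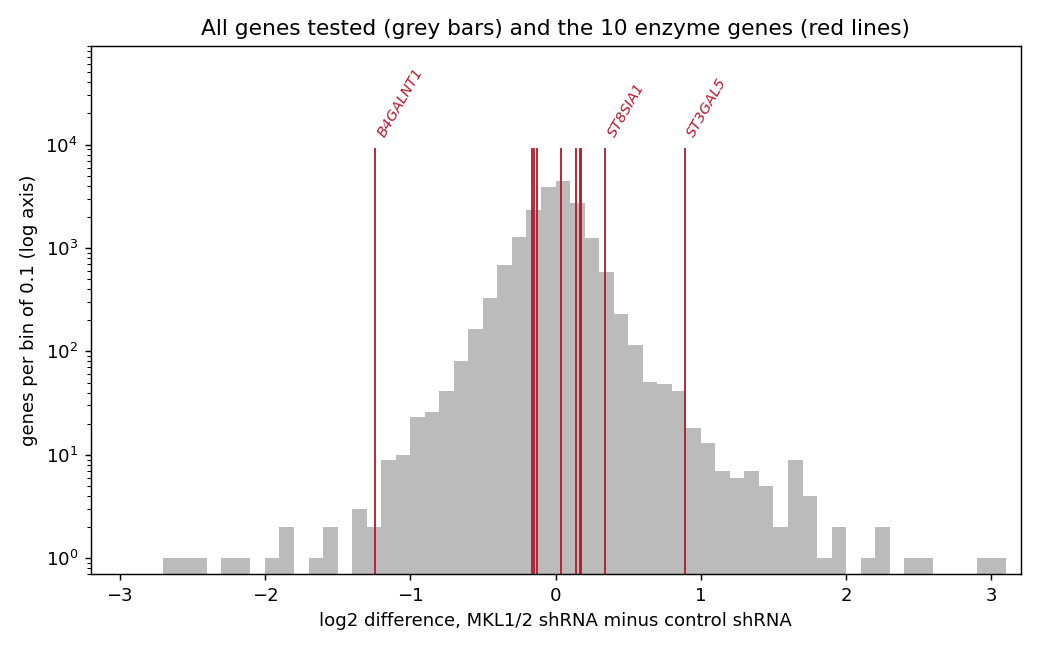
Number of genes (vertical axis, log scale) by log2 difference, MKL1/2 shRNA minus control shRNA (horizontal axis, bins of 0.1), for the 18417 genes tested, with red lines at the 10 enzyme genes. B4GALNT1 lies in the thin left tail at -1.24, and 7 unlabelled members lie within 0.18 of zero.

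**Figure D2:**
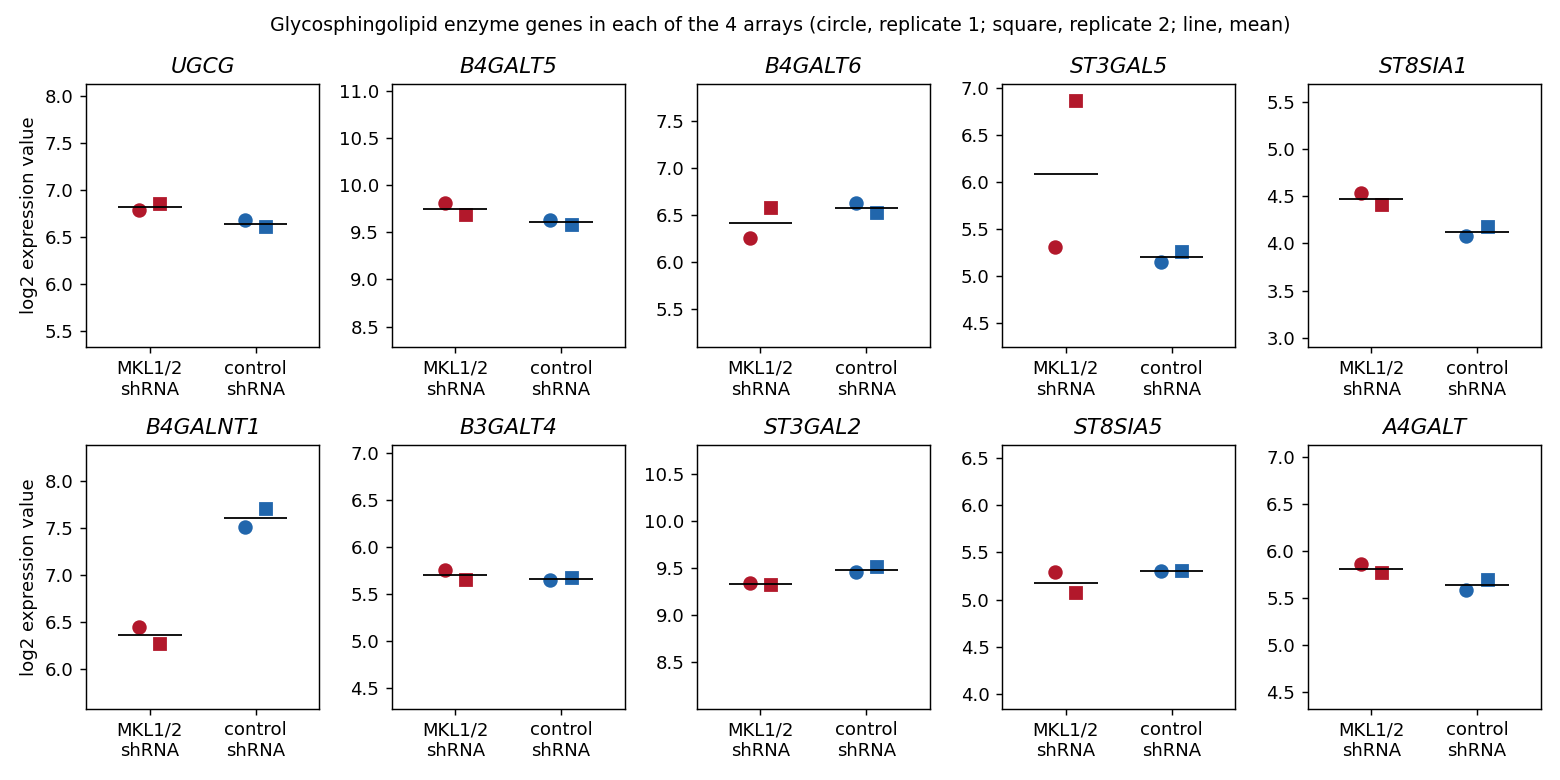
Log2 expression values of the 10 enzyme genes (vertical axis, of equal length in all panels but at a different height in each) in the 2 MKL1/2 shRNA arrays (red, left) and the 2 control shRNA arrays (blue, right), with circles for replicate 1, squares for replicate 2 and a line at the mean. B4GALNT1 lies at 6.45 and 6.27 against 7.51 and 7.70, and ST3GAL5 is at 6.87 in knockdown replicate 2 alone.

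The enzymes that start the pathway showed small differences. UGCG, the glucosylceramide synthase through which every ganglioside of this route passes, read 6.79 and 6.85 in the MKL1/2 shRNA arrays and 6.68 and 6.60 in the control shRNA arrays. Both knockdown values were above both control values, and the log2 difference was 0.18 (SE 0.0955, limma adjusted p = 0.460). The lactosylceramide synthases are a pair of paralogs whose differences had opposite signs. B4GALT5 read 9.81 and 9.69 in the MKL1/2 shRNA arrays and 9.64 and 9.58 in the control shRNA arrays, so it was slightly higher in both knockdown arrays. Its log2 difference was 0.14 (SE 0.0996, limma adjusted p = 0.578). B4GALT6 read 6.25 and 6.57 in the MKL1/2 shRNA arrays and 6.62 and 6.52 in the control shRNA arrays. Its groups overlapped, since knockdown replicate 2 lay between the controls, and the log2 difference of -0.16 (SE 0.133) came from replicate 1. Without knockdown replicate 1 it was 0.00090. The difference between the paralogs' responses was not tested.

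ST3GAL5, the GM3 synthase, differed between the knockdown arrays more than between the groups. It read 5.32 and 6.87 in the MKL1/2 shRNA arrays and 5.15 and 5.26 in the control shRNA arrays. Knockdown replicate 1 lay 0.11 above the control mean and replicate 2 lay 1.66 above it. The log2 difference of 0.89 (SE 0.453) did not pass the test (limma adjusted p = 0.437). It was 0.11 without knockdown replicate 2 and 1.66 without knockdown replicate 1, so the value rests on a single array. With that lone array the limma adjusted p was 0.00562, which takes its spread from the control pair, the lone array being assumed to vary like the controls, and supports nothing. Over all genes, 11 others lay at least as far above replicate 1 in replicate 2 (1.55 on the log2 scale), and 13 lay at least as far below it. The 5 genes whose values over the 4 arrays were most like those of ST3GAL5 were C7, DCAF4L2, SPTSSB, UNC13C and NR0B2, a search added after the ST3GAL5 values were seen. Likeness was the root mean square difference of log2 values centred on each gene's mean, and it ran from 0.083 for C7 to 0.144 for NR0B2. SPTSSB, a small subunit of the serine palmitoyltransferase that starts ceramide synthesis, read 6.88 and 8.38 in the MKL1/2 shRNA arrays and 6.51 and 6.49 in the control shRNA arrays. C7, a complement component, read 5.26 and 7.02 against 5.29 and 5.35 in the same order. All 5 were highest in knockdown replicate 2, which follows from picking them for likeness to ST3GAL5, so it carries no test.

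**Figure D3:**
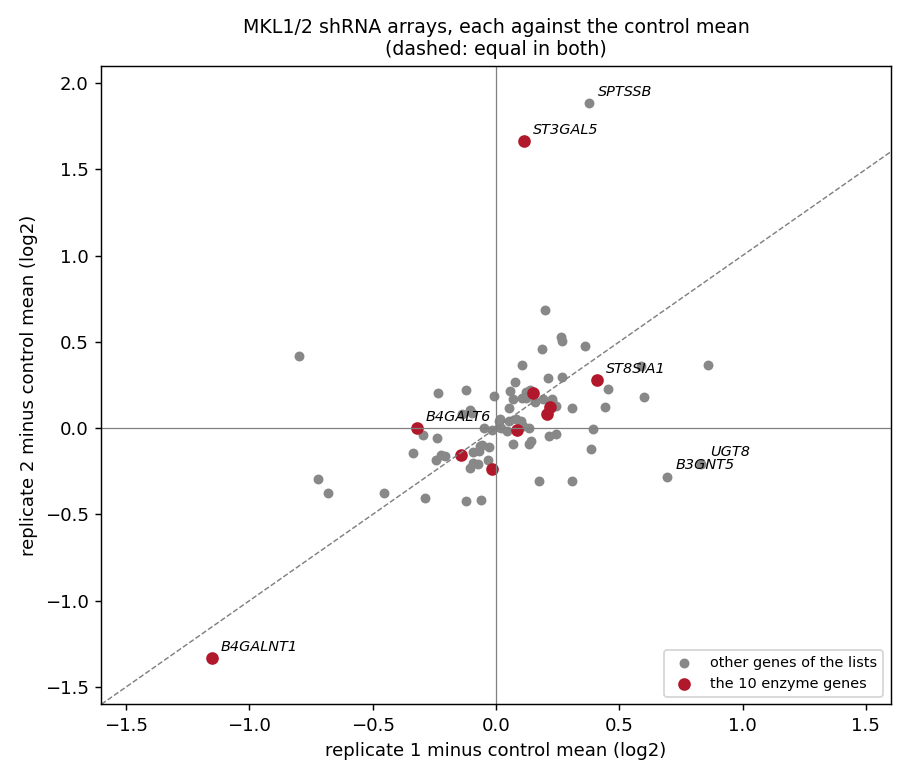
Log2 difference from the control mean in MKL1/2 shRNA replicate 1 (horizontal axis) and replicate 2 (vertical axis) for the 10 enzyme genes (red) and the other genes of the 5 pathway lists (grey), with a dashed line where both arrays are equal. B4GALNT1 lies near the line at -1.15 and -1.33, whereas ST3GAL5 lies at 0.11 and 1.66.

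ST8SIA1, the GD3 synthase that competes with B4GALNT1 for GM3, was higher in both knockdown arrays. It read 4.54 and 4.40 in the MKL1/2 shRNA arrays and 4.08 and 4.17 in the control shRNA arrays, a log2 difference of 0.34 (SE 0.103). The groups did not overlap, but the gene did not pass over all genes (limma adjusted p = 0.229, unadjusted p = 0.0150). These values lie close to the arrays' lower quartiles of 3.99 to 4.02, and no background level is known, so no fold is given. A second ST8SIA1 probe read 4.11 and 4.04 in the MKL1/2 shRNA arrays and 3.83 and 3.97 in the control shRNA arrays, a log2 difference of 0.18 of the same sign. The difference of the probes' mean was 0.26.

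The enzymes that act after B4GALNT1 showed no difference that passed the test. B3GALT4, which adds galactose to give GM1 and GD1b, read 5.75 and 5.65 in the MKL1/2 shRNA arrays and 5.66 and 5.68 in the control shRNA arrays. Its groups overlapped, and the log2 difference was 0.036 (SE 0.0962, limma adjusted p = 0.911). Its 3 probes carried identical values and count as 1 measurement. ST3GAL2, which adds the terminal sialic acid of GD1a and GT1b, read 9.34 and 9.32 in the MKL1/2 shRNA arrays and 9.46 and 9.51 in the control shRNA arrays. Both knockdown arrays were lower by a similar amount, with -0.15 as the log2 difference (SE 0.0929, limma adjusted p = 0.527). ST8SIA5, a sialyltransferase of the most heavily sialylated gangliosides, read 5.29 and 5.07 in the MKL1/2 shRNA arrays and 5.31 and 5.30 in the control shRNA arrays. Knockdown replicate 1 lay 0.015 below the control mean and replicate 2 lay 0.23 below it, so the log2 difference of -0.12 (SE 0.111) came mostly from replicate 2. It was -0.015 without that array. A4GALT, the Gb3 synthase, read 5.86 and 5.76 in the MKL1/2 shRNA arrays and 5.59 and 5.70 in the control shRNA arrays. It was higher in both knockdown arrays with 0.17 as the log2 difference (SE 0.101, limma adjusted p = 0.505), and did not pass.

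**Figure D4:**
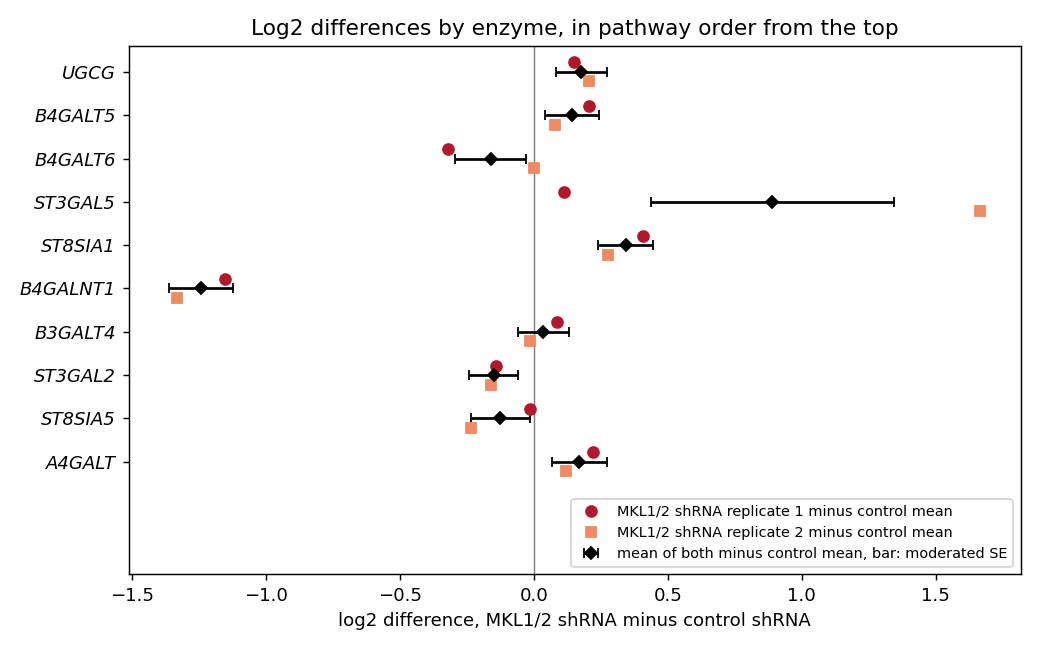
Log2 differences of the 10 enzyme genes, MKL1/2 shRNA minus control shRNA (horizontal axis), in pathway order from the top, as the mean difference with its moderated SE (black) and as each knockdown array minus the control mean (circles, replicate 1; squares, replicate 2). B4GALNT1 stands at -1.24 with both arrays below -1.1, and 8 of the 9 others lie between -0.16 and 0.34, with ST3GAL5 at 0.89.

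The genes whose values over the 4 arrays were most like those of B4GALNT1 were OLFM2, FHL2, MAP1A, PDLIM3 and ZNF542P, out of the 18417 tested. OLFM2, which encodes the secreted protein olfactomedin 2, was nearest at a root mean square difference of 0.082, and ZNF542P was the farthest of the 5 at 0.164. OLFM2 read 7.97 and 7.85 in the MKL1/2 shRNA arrays and 8.86 and 9.16 in the control shRNA arrays. FHL2 and PDLIM3 encode LIM domain proteins of the actin cytoskeleton, and MAP1A encodes a microtubule-associated protein. The log2 differences were -1.11 for OLFM2, -1.18 for FHL2, -0.93 for MAP1A, -0.95 for PDLIM3 and -1.31 for ZNF542P. FHL2, PDLIM3 and ZNF542P passed the test over all genes, whereas OLFM2 and MAP1A each had a limma adjusted p of 0.0563. The likeness rests on 4 arrays, and genes were picked for it, so it carries no test.

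The genes that feed and surround the pathway were taken in 5 further lists. Of their 80 measured members 0 passed the test over all genes in limma, where 0.174% of all genes passed in either direction. At an unadjusted p under 0.05 there were 4 lower and 11 higher among the 80, against 8.04% and 6.25% of all genes. Ceramide synthesis and delivery had 20 measured genes of 22 listed, with a median log2 difference of -0.0033. In that list CERS5, a ceramide synthase, read 6.84 and 7.15 in the MKL1/2 shRNA arrays and 7.60 and 7.44 in the control shRNA arrays (log2 difference -0.53, limma adjusted p = 0.188). SGMS1, which turns ceramide into sphingomyelin and so draws on the same substrate as UGCG, read 7.38 and 7.81 in the MKL1/2 shRNA arrays and 8.18 and 8.03 in the control shRNA arrays (log2 difference -0.51, limma adjusted p = 0.245). Both were lower in both knockdown arrays. The third gene by p was SPTSSB, described beside ST3GAL5, for which the log2 difference was 1.13 (SE 0.44, limma adjusted p = 0.327). It lay 0.38 above the control mean in knockdown replicate 1 and 1.88 above it in replicate 2. In this list 7 genes were lower (35%) and 2 higher (10%) with no overlap between the groups, against 23.0% and 22.5% of all genes.

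Sugar nucleotide supply, the making and Golgi transport of the activated sugars, had 11 measured genes of 12 and a median of 0.18. With no overlap, 0 were lower and 6 higher (54.5%), against 23.0% and 22.5% of all genes. GALK1, the galactokinase, read 8.14 and 7.64 in the MKL1/2 shRNA arrays and 7.26 and 7.30 in the control shRNA arrays (log2 difference 0.61, limma adjusted p = 0.211). GALT, the next enzyme of galactose use, lay at 0.39 (SE 0.114, limma adjusted p = 0.227), and SLC35A2, the Golgi transporter of UDP-galactose, at 0.44 (SE 0.187, limma adjusted p = 0.364). CMAS, which activates sialic acid, and SLC35A1, which carries it into the Golgi, had overlapping groups, with log2 differences of -0.24 and -0.0013.

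Other sialyltransferases had 16 measured genes of 16 and a median of 0.18, with 10 higher (62.5%) and 2 lower (12.5%) without overlap, against 22.5% and 23.0% of all genes. ST8SIA6, counted among the 10, read 2.83 and 2.82 in the MKL1/2 shRNA arrays and 2.60 and 2.73 in the control shRNA arrays. These values lie below the arrays' lower quartiles, as do those of ST8SIA3 and ST8SIA4, whose groups overlapped. ST6GAL1, which caps N-glycans of liver glycoproteins, read 10.86 and 10.63 in the MKL1/2 shRNA arrays and 10.21 and 10.34 in the control shRNA arrays (log2 difference 0.47, limma adjusted p = 0.185). ST3GAL1 read 6.42 and 6.68 in the MKL1/2 shRNA arrays and 6.06 and 6.25 in the control shRNA arrays (log2 difference 0.40, limma adjusted p = 0.265). ST6GALNAC2, which acts on O-glycans, went the other way, at 4.72 and 4.60 in the MKL1/2 shRNA arrays and 5.00 and 5.01 in the control shRNA arrays (log2 difference -0.35, limma adjusted p = 0.217). For each of the 3 the groups were apart.

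The other glycosphingolipid branches, with 16 measured genes of 16, had a median of 0.075, with 4 higher (25%) and 2 lower (12.5%) without overlap, against 22.5% and 23.0% of all genes. B4GALT1, a galactosyltransferase of glycoproteins and lactose synthase, read 9.24 and 9.35 in the MKL1/2 shRNA arrays and 8.87 and 8.88 in the control shRNA arrays (log2 difference 0.42, limma adjusted p = 0.162). Both of its knockdown values were above both control values. B3GALT2, a galactosyltransferase, lay at 0.32 (SE 0.13) and B3GALT5, which builds type 1 chains, at -0.27 (SE 0.126), with limma adjusted p-values of 0.339 and 0.397.

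Glycosphingolipid breakdown, a list mostly but not only of lysosomal genes, had 17 measured genes of 20 and a median of 0.026. Without overlap, 7 were higher (41.2%) and 6 lower (35.3%), against 22.5% and 23.0% of all genes. NEU1, the lysosomal sialidase, read 9.16 and 9.24 in the MKL1/2 shRNA arrays and 9.62 and 9.61 in the control shRNA arrays (log2 difference -0.42, limma adjusted p = 0.159). CTSA and GLB1 encode the protective protein and the beta-galactosidase that form a lysosomal complex with it, and both had positive differences. CTSA read 11.00 and 11.03 in the MKL1/2 shRNA arrays and 10.73 and 10.74 in the control shRNA arrays (log2 difference 0.28, limma adjusted p = 0.263), and the log2 difference of GLB1 was 0.25 (SE 0.098, limma adjusted p = 0.328). HEXA, whose product removes the sugar that B4GALNT1 adds, lay at 0.14 (SE 0.103, limma adjusted p = 0.611). GM2A, of the same list, had the opposite sign at -0.17 (SE 0.105, limma adjusted p = 0.530).

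**Figure D5:**
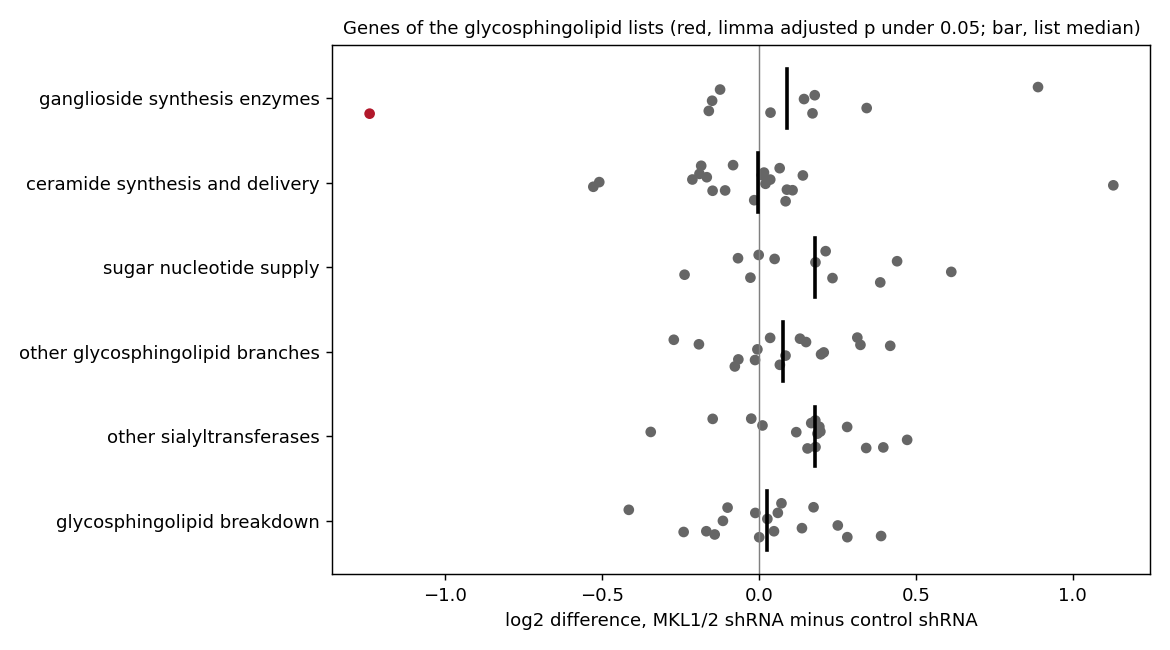
Log2 difference, MKL1/2 shRNA minus control shRNA (horizontal axis), of each measured gene in the 6 lists (rows; points are spread vertically for legibility), with the list's median as a black bar and genes past a limma adjusted p of 0.05 in red. B4GALNT1 at -1.24 is the 1 red point, and the other genes past 0.6 in either direction are ST3GAL5, SPTSSB and GALK1.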

How the data were processed

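Biotin-labelled cDNA made from total RNA was hybridised to whole-transcript arrays, 1 colour and 1 array per sample, per the labels. The deposited values are log2 expression values for 33297 probes, a scale inferred from their range; the submitters' processing notes name Partek, while for background correction and normalization the sources used here give no method. Platform annotation named 19460 probes with 1 gene symbol, 1754 with several and none of the other 12083; Entrez identifiers led to current RefSeq symbols (GRCh38.p14) for 19429 of these. One probe a gene, the brightest on average, left 18417 genes, with no filter on dim ones.

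Groups came from the titles. Differences (MKL1/2 shRNA minus control shRNA) were tested in limma (version 3.58.1, R 4.3.3) by lmFit and eBayes (group as the only term, 2 residual and 4.12 prior degrees of freedom), Benjamini-Hochberg adjusted over all genes, threshold 0.05. The procedure was tested on simulated data. SEs are limma's moderated SEs. The members and lists were chosen with earlier results of these data known. The genes named from the pathway lists are the 3 with the smallest p in each, and those named as like B4GALNT1 are the 5 nearest. Besides these, SLC35A1, CMAS, HEXA, GM2A, ST8SIA3, ST8SIA4 and ST8SIA6 were added after their values were seen. Of the genes on the pathway lists, 6 were not used here. No arrays were duplicates (at most 174 identical probe values in a pair). Alternatives changed the filter, normalization, centring, probe rule, moderation and threshold, added a replicate block or left out an array.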

Additional observations from a re-analysis of the deposited data

How the results depend on the processing

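B4GALNT1 was lower and passed an adjusted p of 0.05 in limma in all 8 settings that kept the 4 arrays at that threshold, with log2 differences from -1.25 to -1.22 and adjusted p-values from 0.0221 to 0.0329. It did not pass without control replicate 1 (adjusted p = 0.486) or control replicate 2 (0.53), where no gene passed in limma, against 452 lower and 414 higher, and 676 lower and 543 higher, at an unadjusted p under 0.05. Over the sets of 3 arrays its difference ran from -1.34 to -1.15, members called lower from 0 to 1, members called higher from 0 to 1 (ST3GAL5, without knockdown replicate 1), and all genes called from 0 to 442 lower and 0 to 339 higher. B4GALT6 turned to 0.00090 and B3GALT4 to -0.013 without knockdown replicate 1, against 0.086 for B3GALT4 without replicate 2 and -0.32 for B4GALT6. In the settings with all 4 arrays no member changed sign or call. A changed filter, moderation or block leaves each log2 difference as it was, so an unchanged sign there was fixed in advance. The same holds for the probe rule in the 8 members with a single probe. Without the dimmest 40% of genes 5 members remained (B4GALNT1, UGCG, B4GALT5, B4GALT6 and ST3GAL2). All genes called lower numbered 27 without the dimmest genes, 30 after quantile normalization, 28 with robust eBayes and 78 at a threshold of 0.1, against 17; those called higher numbered 23 with robust eBayes and 66 at 0.1, against 15. The replicate block gave 38 lower and 55 higher; no label ties the same number to a shared day or batch, same-numbered arrays' deviations correlated at -0.067 over genes, and the numbers were not treated as pairs, and the block changed no call of a member. The causes of these changes in counts were not tested. No scanner values or background levels stand behind the members among the dimmest 40%, which were ST8SIA1, ST3GAL5, ST8SIA5, B3GALT4 and A4GALT.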
